A study of Homo sapiens with 12 samples.

Results

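The aryl hydrocarbon receptor (AHR) battery described here comprises 7 genes, which are the receptor AHR, its partner ARNT, its repressor AHRR, the ADP-ribosyltransferase TIPARP and the cytochrome P450 genes CYP1A1, CYP1A2 and CYP1B1. They were taken as every gene probe of the array whose design name is 1 of these symbols, which gave 10 of the 41000 gene probes, and all 10 were among the 33467 probes of 24251 genes that passed the filter on dim signal. The genes were picked with the response of CYP1A1 in these arrays already known, so their values are given as a description, with the standard error (SE) of the fit and without p-values. The cells were HuH-7, a line from a human liver cancer (hepatocellular carcinoma), which received SLMP53-2 at 28 or 42 µM (2 and 3 times the IC50) or only its solvent DMSO for 24 h. All 3 groups carry the same p53 genotype, labeled p53mutant Y220C, and each holds 4 arrays, described as biological replicates, on 5 slides in all. The labels of the higher dose give 42 µM in the titles and 48 µM in the treatment field, and it is called 42 µM here. All groups come from a single cell line.

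AHR is a transcription factor that waits in the cytoplasm in a complex with the chaperone HSP90. When it binds a ligand, such as a dioxin, a polycyclic aromatic hydrocarbon or an indole derived from tryptophan, it moves to the nucleus, pairs with ARNT and binds DNA at the xenobiotic response element, whose core reads GCGTG. In liver cells it is best known for switching on CYP1A1 and CYP1A2, enzymes that oxidize planar aromatic compounds, and it also switches on AHRR and TIPARP, which both restrain it.

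The 250 bases before the start of transcription of the battery genes were searched for the core GCGTG on both strands, because this is where the receptor would meet these genes closest to the start. RefSeq promoters of GRCh38.p14 were at hand for 6 of the 7 genes, in 9 windows, since AHRR has 2 starts and TIPARP has 3. CYP1B1 is named only. The windows of CYP1A1 at chr15:74725529-74725778 (minus strand), of CYP1A2 at chr15:74748595-74748844 (plus strand), of the 2 starts of AHRR at chr5:321464-321713 and chr5:322360-322609 (plus strand) and of the first start of TIPARP at chr3:156674340-156674589 (plus strand) read from 5′ to 3′ as follows, each on the strand of its gene and with the core in capitals (GCGTG, or CACGC where it lies on the opposite strand).
CYP1A1: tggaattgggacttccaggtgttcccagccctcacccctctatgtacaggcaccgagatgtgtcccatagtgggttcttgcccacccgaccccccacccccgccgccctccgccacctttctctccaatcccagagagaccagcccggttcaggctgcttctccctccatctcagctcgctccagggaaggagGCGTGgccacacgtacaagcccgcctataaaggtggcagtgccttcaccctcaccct
CYP1A2: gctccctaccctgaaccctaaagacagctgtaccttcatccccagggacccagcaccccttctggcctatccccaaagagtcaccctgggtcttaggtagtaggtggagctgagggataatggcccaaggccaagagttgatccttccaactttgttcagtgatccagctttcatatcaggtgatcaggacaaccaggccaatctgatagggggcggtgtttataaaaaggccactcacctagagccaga
AHRR start 1: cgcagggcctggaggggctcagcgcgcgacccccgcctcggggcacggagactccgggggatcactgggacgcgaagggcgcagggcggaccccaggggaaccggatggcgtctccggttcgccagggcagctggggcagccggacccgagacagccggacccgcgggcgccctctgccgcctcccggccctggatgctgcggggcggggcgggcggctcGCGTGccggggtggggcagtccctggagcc
AHRR start 2: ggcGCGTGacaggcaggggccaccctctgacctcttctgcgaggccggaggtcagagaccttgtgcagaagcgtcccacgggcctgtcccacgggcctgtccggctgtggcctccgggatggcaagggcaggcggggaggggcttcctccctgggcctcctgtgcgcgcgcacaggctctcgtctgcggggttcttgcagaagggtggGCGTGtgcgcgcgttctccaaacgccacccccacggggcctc
TIPARP start 1: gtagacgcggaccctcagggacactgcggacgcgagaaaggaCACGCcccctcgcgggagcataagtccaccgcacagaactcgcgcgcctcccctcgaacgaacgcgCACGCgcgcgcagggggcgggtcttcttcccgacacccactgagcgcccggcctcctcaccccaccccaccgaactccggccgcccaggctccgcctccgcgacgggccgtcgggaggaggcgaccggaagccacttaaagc

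The CYP1A1 window held 1 core, 57 bases before the start. CYP1A2, which lies next to CYP1A1 on chromosome 15 on the opposite strand with 0 listed genes between them, held 0 in its window. The first TIPARP start had 2 cores, 208 and 142 bases before it, and the first and the second AHRR start had 1 and 2. The windows of AHR, of ARNT and of the other two TIPARP starts held 0. The longer form TNGCGTG, which contains the core, was found once, before the first AHRR start. Of 35114 promoter windows of the same length, 32.2% held the core and 4.52% the longer form, so a core in a window of this size is common. At least 2 cores, as before the first TIPARP and the second AHRR start, were held by 10.2%. A match is given as letters in the sequence, not as a site that was bound. Bases further upstream were not searched, so a window with 0 cores does not show that a gene lacks them.

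Replicate 4 of the 28 µM group lay close to the DMSO arrays in most of what follows, and the differences at 28 µM are therefore also given without it. Since it was left out for its values, the p-values and counts without it are a description and not a test. Its label gives 28 µM, the means and SDs at 28 µM over 4 arrays include it, and whether it differed in treatment was not tested. On that array 3 of the 10 battery probes (those of CYP1A1 and TIPARP and the dimmer one of ARNT) were above all 4 DMSO arrays, beside 24.1% of all probes. Gene spots called well above background made up 69.5 to 76.6% on the DMSO arrays, 65.0 to 85.0% at 28 µM, where replicate 4 had 83.4%, and 71.3 to 78.5% at 42 µM. All 10 hepatocyte markers that were checked, albumin (ALB) among them, were well above background on all 12 arrays. Of 9 markers of leukocytes, endothelium and fibroblasts, PTPRC was above background on 0 arrays and 5 (CD3E, VWF, COL1A2 and COL3A1 among them) on all 12, and their part in any result was not tested.

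CYP1A1 had the largest increase over DMSO of all 33467 probes at both doses. Its product is a monooxygenase of the endoplasmic reticulum and its mRNA is the usual readout of AHR activity. The probe A_23_P163402 lies at chr15:75012562-75012621 of hg19 on the minus strand. The normalized level, on the log2 scale, was 10.21, 10.16, 9.70 and 9.81 on DMSO replicates 1 to 4. It was 12.81, 13.96, 13.35 and 10.35 on the 28 µM arrays and 13.00, 14.20, 13.21 and 13.11 on the 42 µM arrays. All 8 treated arrays lay above all 4 DMSO arrays, with a wide gap for 7 of them and a narrow gap for 28 µM replicate 4. The mean level was 9.97 ± 0.25 (SD, n = 4) in DMSO, 12.62 ± 1.59 (SD, n = 4) at 28 µM and 13.38 ± 0.55 (SD, n = 4) at 42 µM. The log2 difference from DMSO was 3.41 (SE 0.58) at 42 µM, a fold of 10.6, and 2.65 (SE 0.58) at 28 µM, a fold of 6.28. Without 28 µM replicate 4, the mean at 28 µM was 13.38 ± 0.58 (SD, n = 3) and the log2 difference 3.41 (SE 0.30). The rank by increase was 1 of 33467 at 42 µM and at 28 µM, and it was still 1 at 28 µM without replicate 4. The arrays measure the RNA of whole cultures, so a higher level in a share of the cells and a higher level in each cell cannot be told apart.

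The doses differed little for CYP1A1 next to the spread between arrays. The log2 difference of 42 µM from 28 µM was 0.76, with a 95% confidence interval from -0.48 to 2.00. Without 28 µM replicate 4 it was 0.00 (SE 0.30), with an interval from -0.66 to 0.66. The intervals are wide enough to hold a difference in either direction.

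**Figure D1:**
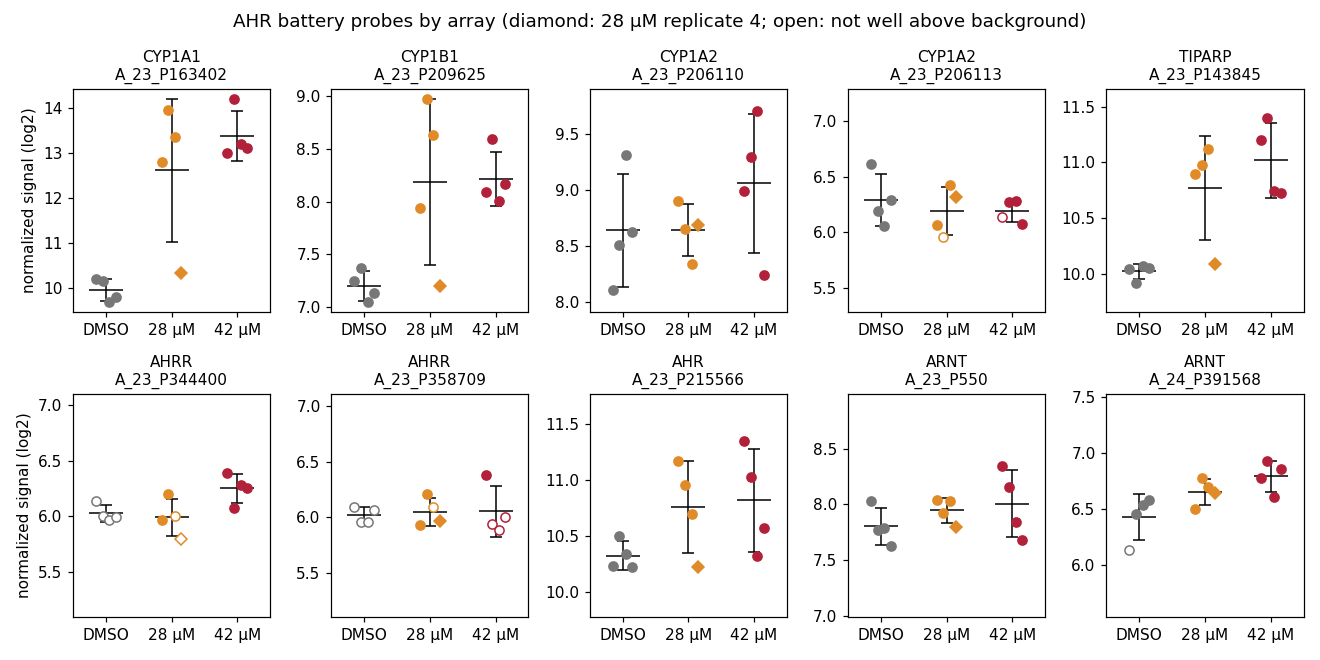
Normalized log2 signal of the 10 probes on every array, by group (DMSO, 28 µM, 42 µM; 4 arrays each), with horizontal bars for the mean and vertical bars for ± 1 SD; each panel has its own axis, which spans at least 2 log2 units. CYP1A1, CYP1B1 and TIPARP are higher at 42 µM on all 4 arrays, 28 µM replicate 4 (diamond) stays near DMSO for them, and the open points of AHRR mark arrays on which it was not well above background.

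CYP1B1 was also higher at both doses, by a smaller amount than CYP1A1. It encodes a related monooxygenase found mainly outside the liver, which oxidizes estradiol and aromatic hydrocarbons. The probe A_23_P209625 (hg19, chr2:38295444-38295503, minus strand) read 7.25, 7.37, 7.05 and 7.13 on DMSO replicates 1 to 4. The 28 µM arrays read 7.93, 8.97, 8.64 and 7.20, and the 42 µM arrays 8.09, 8.59, 8.01 and 8.17. The 4 arrays at 42 µM and the first 3 at 28 µM were above every DMSO array, while 28 µM replicate 4 lay inside the DMSO range. The log2 difference from DMSO was 1.01 (SE 0.29) at 42 µM, a fold of 2.02, and 0.99 (SE 0.29) at 28 µM, a fold of 1.98. Without replicate 4 the difference at 28 µM was 1.31 (SE 0.22), a fold of 2.49. By increase the probe ranked 257 of 33467 at 42 µM and 110 at 28 µM, or 95 without replicate 4.

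CYP1A2, the neighbor of CYP1A1 and in healthy liver the main caffeine-oxidizing P450, showed no such difference with either of its probes. The probe A_23_P206110 (hg19, chr15:75047509-75047568, plus strand) was above background on all 12 arrays. Its bases 36 to 51 also occur, on either strand, in 1 probe of another gene, as do bases 8 to 23 of the CYP1A1 probe. Whether its signal comes from CYP1A2 alone was not tested, so its level does not show how much CYP1A2 the cells express. This probe read 8.10, 8.51, 9.32 and 8.63 in DMSO, 8.90, 8.65, 8.34 and 8.69 at 28 µM, and 8.99, 9.29, 9.71 and 8.24 at 42 µM. The 3 groups overlapped, with 1 array at 42 µM above all DMSO arrays. The log2 difference was 0.42 (SE 0.29) at 42 µM and 0.01 (SE 0.29) at 28 µM, or -0.01 (SE 0.33) without replicate 4. The second probe, A_23_P206113, spans 515 bases of hg19 (chr15:75043624-75044138), which is longer than the 60 bases of the probe and places it across an intron. It lay lower, between 5.96 and 6.61 on all arrays, with 1 array at each dose not well above background. Its log2 differences were -0.10 (SE 0.14) at both doses and -0.14 (SE 0.15) at 28 µM without replicate 4, and for both probes the groups overlapped.

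TIPARP was higher on the same arrays as CYP1A1. It encodes a mono-ADP-ribosyltransferase that marks AHR and lowers its activity. The probe A_23_P143845 (hg19, chr3:156424310-156424369, plus strand) read 10.05, 9.92, 10.08 and 10.05 on the DMSO replicates. It read 10.90, 10.97, 11.12 and 10.09 at 28 µM and 11.20, 11.40, 10.75 and 10.72 at 42 µM. All 8 treated arrays were above the DMSO arrays, with 28 µM replicate 4 above by a margin of 0.01. The log2 difference was 0.99 (SE 0.21) at 42 µM, a fold of 1.99, and 0.75 (SE 0.21) at 28 µM, a fold of 1.68. Leaving out replicate 4 gave 0.97 (SE 0.16) at 28 µM, a fold of 1.96. The probe ranked 273 of 33467 at each dose, and 254 at 28 µM without replicate 4.

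AHRR, the repressor that competes with AHR for ARNT, stayed close to background. Neither of its probes was well above background on any of the 4 DMSO arrays. The probe A_23_P344400 (hg19, chr5:435116-435175, plus strand) lay between 5.97 and 6.14 in DMSO. At 28 µM it read 5.97, 6.20, 6.00 and 5.80 and was above background on 2 arrays. At 42 µM it read 6.39, 6.08, 6.28 and 6.25 and was above background on all 4, 3 of them above every DMSO array. Its log2 difference from DMSO at 42 µM was 0.23 (SE 0.11), a fold of 1.17, with a 95% confidence interval from -0.02 to 0.47. Both AHRR probes passed the filter on dim signal only through treated arrays. The probe A_23_P358709 (hg19, chr5:438030-438089, plus strand) lay between 5.96 and 6.10 in DMSO, between 5.93 and 6.21 at 28 µM and between 5.88 and 6.38 at 42 µM, and it was above background on 3 and 1 arrays of the treated groups. Replicate 4 at 28 µM did not reach the highest DMSO level with either probe, and the remaining 28 µM arrays of both still overlapped the DMSO range. The probes differed at 42 µM, where only the first was above background throughout.

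AHR itself was higher on most but not all treated arrays. The probe A_23_P215566 (hg19, chr7:17384999-17385058, plus strand) read 10.23, 10.50, 10.34 and 10.22 in DMSO. It read 11.17, 10.96, 10.695 and 10.22 at 28 µM and 11.35, 11.02, 10.32 and 10.58 at 42 µM. In each treated group 3 of 4 arrays were above all DMSO arrays, and the fourth lay within or just under the DMSO range. The log2 difference was 0.49 (SE 0.23) at 42 µM and 0.44 (SE 0.23) at 28 µM, folds of 1.41 and 1.35. The 95% confidence intervals ran from 0.003 to 0.99 at 42 µM and from -0.05 to 0.93 at 28 µM. Without 28 µM replicate 4, the difference at 28 µM was 0.62 (SE 0.22), a fold of 1.53.

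ARNT, the obligate DNA-binding partner of AHR and also of the hypoxia factors, differed little between groups with its brighter probe and was slightly higher at 42 µM with its dimmer one. The brighter probe A_23_P550 (hg19, chr1:150784002-150784061, minus strand) ranged from 7.63 to 8.03 in DMSO, from 7.80 to 8.04 at 28 µM and from 7.68 to 8.35 at 42 µM. Its groups overlapped, and its log2 differences were 0.20 and 0.14 (SE 0.15) at 42 and 28 µM, and 0.19 (SE 0.16) at 28 µM without replicate 4. The dimmer probe A_24_P391568 (hg19, chr1:150783044-150783103, minus strand) ranged from 6.13 to 6.59 in DMSO, where it was above background on 3 of 4 arrays, from 6.50 to 6.78 at 28 µM and from 6.61 to 6.93 at 42 µM. Its 42 µM arrays lay narrowly above all DMSO arrays, with a log2 difference of 0.37 (SE 0.13) and a 95% confidence interval from 0.09 to 0.64. The difference of the dimmer probe at 28 µM was 0.23 with and without replicate 4.

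**Figure D2:**
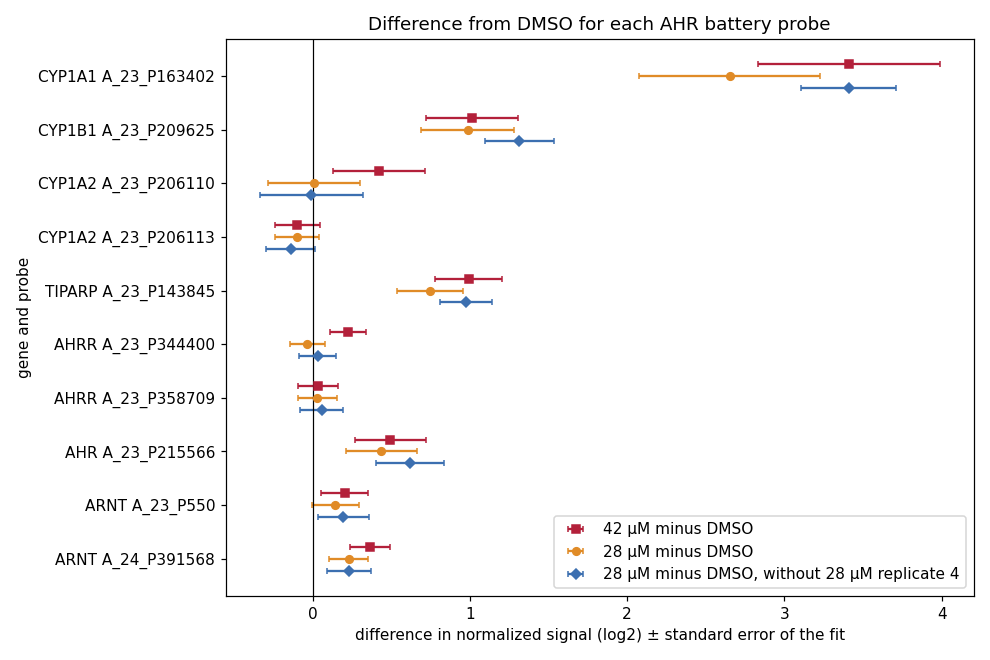
Log2 difference from DMSO (horizontal axis) of each probe at 42 µM (squares), at 28 µM (circles) and at 28 µM without replicate 4 (diamonds), with bars for ± 1 SE of the fit. CYP1A1 stands at 3.41, 2.65 and 3.41, CYP1B1 and TIPARP between 0.75 and 1.31, and the other probes between -0.14 and 0.62; AHRR rests on DMSO arrays not well above background.

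The counts for the battery are set beside those for all probes, and nothing is read from them, since the genes were picked from these contrasts. At an adjusted p-value below 0.05 in limma and a log2 difference of at least 0.6, 2 of the 10 probes (CYP1A1 and TIPARP) passed as higher at 42 µM, beside 1.41% of all probes, and 0 as lower, beside 1.23%. At 28 µM 0 probes of the array passed in either direction, a share of 0%, and at an unadjusted p-value below 0.05 with the same log2 limit 456 passed as higher and 340 as lower. Between 42 and 28 µM 0 probes passed both limits either, and 39 and 56 passed the looser rule as higher and lower (0.117% and 0.167% of all probes, 0 of the battery). That looser rule passed 3 battery probes (CYP1A1, CYP1B1 and TIPARP) as higher at 28 µM, beside 1.36% of all probes, and the same 3 at 42 µM, beside 2.93%. As lower it passed 0 battery probes, beside 1.02% of all probes at 28 µM and 2.1% at 42 µM. Without 28 µM replicate 4 and with the stricter rule, these 3 passed at both doses, beside 1.31% of all probes at 28 µM and 2% at 42 µM, and 0 as lower, beside 0.84% and 1.64%. By overlap alone, 4 probes (CYP1A1, CYP1B1, TIPARP and the dimmer ARNT probe) had all 42 µM arrays above all DMSO arrays, beside 5.83% of all probes. At 28 µM this held for 2 probes (CYP1A1 and TIPARP), beside 2.69%, and without replicate 4 for 4 (with CYP1B1 and AHR), beside 7.01%. CYP1A1 and TIPARP had all 8 treated arrays above all DMSO arrays, as did 1.59% of all probes.

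The slides hold arrays of several groups, so the differences were also taken within each slide. For CYP1A1, 28 µM was above DMSO by 3.14 on slide 1 and by 3.00 on slide 2, and 42 µM was above DMSO by 3.19 on slide 2, 4.50 on slide 4 and 3.05 on slide 5. On slide 4, which holds 28 µM replicate 4, the difference of 28 µM from DMSO was 0.65. Every within-slide difference of CYP1A1 from DMSO that could be taken was thus above 0. Slide 3 holds no DMSO array, so its 2 treated arrays have no such difference. The difference of 42 µM from 28 µM was -0.85 on slide 3, 0.18 on slide 2 and 3.85 on slide 4. With slide as a fixed block in the fit, the log2 difference of CYP1A1 was 3.40 (SE 0.63) at 42 µM and 2.50 (SE 0.63) at 28 µM, that of TIPARP 1.06 (SE 0.24) and 0.71 (SE 0.24), and that of CYP1B1 0.98 (SE 0.31) and 0.87 (SE 0.31). In that fit 0 probes of the array passed as higher at 42 µM, CYP1A1 and TIPARP included. For TIPARP the within-slide differences of 42 µM from DMSO were 1.15, 1.32 and 0.82 on slides 2, 4 and 5, and for CYP1B1 they were 0.96, 1.54 and 0.63. AHR was above DMSO by 1.13 and 0.69 at 42 µM on slides 2 and 4 and differed by -0.18 on slide 5.

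**Figure D3:**
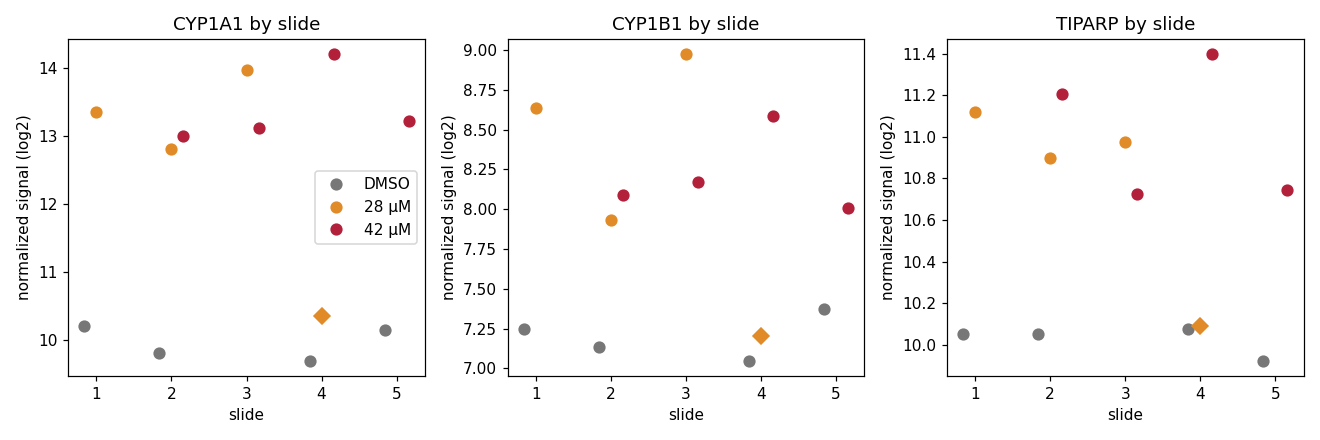
Normalized log2 signal of CYP1A1, CYP1B1 and TIPARP (vertical axes, each with its own range) on the 5 slides (horizontal axis), 1 point per array, colored by group, with 28 µM replicate 4 as a diamond. On each slide that holds both, the 42 µM array lies above the DMSO array; on slide 4, 28 µM replicate 4 lies near DMSO.

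The battery genes varied together across the arrays to different degrees. Over the 12 arrays, which fall into a low set (DMSO and 28 µM replicate 4) and a high set (the other treated arrays), the Pearson correlation with CYP1A1 was 0.95 for CYP1B1 and 0.95 for TIPARP, with 95 and 111 of 24202 genes more alike. It was 0.71 for AHR, 0.51 and 0.68 for the ARNT probes, 0.53 and 0.19 for the AHRR probes and 0.22 and -0.29 for the CYP1A2 probes. These values are a description of arrays that share their groups, labeling and slides.

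**Figure D4:**
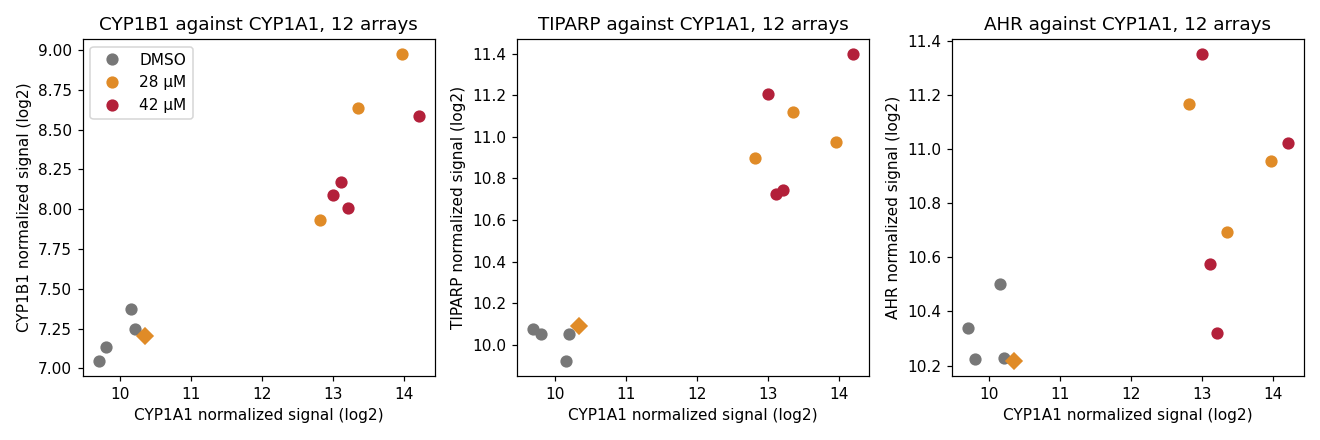
Normalized log2 signal of CYP1B1, TIPARP and AHR (vertical axes) against CYP1A1 (horizontal axis), 1 point per array, colored by group, with 28 µM replicate 4 as a diamond. The 4 DMSO arrays and that diamond form the low CYP1A1 set (9.70 to 10.35), and the other treated arrays the high set (12.81 to 14.20); AHR overlaps between the sets.

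The genes most like CYP1A1 over the 12 arrays were looked for outside the battery only, with its members left out of the ranking. The 5 highest correlations, with 1 probe a gene, belonged to a probe designed to a transcript on chromosome 11 (hg19, 107047965 to 107048024, r = 0.993), to SPG21 (0.990), to ACSS2 (0.990), which makes acetyl-CoA from acetate, to LSS (0.989), the lanosterol synthase of the cholesterol pathway, and to a probe designed to a transcript on chromosome 5 (hg19, 53155848 to 53155907, r = 0.988). LSS had a mean level of 11.29 ± 0.11 (SD, n = 4) in DMSO and 12.87 ± 0.23 (SD, n = 4) at 42 µM, and it read 11.38 on 28 µM replicate 4. ACSS2 had 8.87 ± 0.11 (SD, n = 4) in DMSO and 10.98 ± 0.47 (SD, n = 4) at 42 µM, and it read 8.99 on that replicate. The 3 lowest correlations were those of BIRC5, or survivin, an inhibitor of apoptosis (-0.987), of SLC38A11, of an amino acid transporter family (-0.985), and of the unnamed probe A_23_P251002 (-0.983). BIRC5 read 13.79 ± 0.05 (SD, n = 4) in DMSO and 12.58 ± 0.24 (SD, n = 4) at 42 µM. Genes were picked here for their likeness, so these levels carry no test.

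Genes outside the battery that AHR is known to control had a median change near that of all genes at 42 µM. Of 18 such genes, 15 had a probe that passed the filter, and 2 of these 15 passed both limits as higher at 42 µM and 0 as lower, beside 1.57% and 1.42% of all 24251 genes. Their median log2 difference was 0.02 at 42 µM and 0.09 at 28 µM, beside -0.02 over all genes at each dose. The median at 28 µM was 0.15 without replicate 4, beside -0.04 over all genes. Above 0 were 8 of the 15 genes at 42 µM and 11 at 28 µM, beside 11095 and 11012 of 24251 genes. The 2 that passed were STC2, a secreted glycoprotein, and SLC7A5, a transporter of large neutral amino acids. Both are also known targets of the stress factor ATF4. Each has 2 probes that passed the filter, and only the brighter one, whose values follow, passed both limits at 42 µM. STC2 lay between 8.51 and 9.02 in DMSO, between 9.01 and 11.75 at 28 µM and between 11.51 and 12.23 at 42 µM, with a log2 difference of 3.05 (SE 0.45, limma adjusted p = 0.011) at 42 µM and 2.13 (adjusted p = 0.175) at 28 µM. SLC7A5 read 9.32 to 9.45 in DMSO and 10.74 to 11.18 at 42 µM, a log2 difference of 1.57 (SE 0.26, limma adjusted p = 0.013), and its difference at 28 µM was 0.98 (adjusted p = 0.199). Without 28 µM replicate 4, both passed at 28 µM, with log2 differences of 2.75 (limma adjusted p = 3.52e-05) for STC2 and 1.32 (limma adjusted p = 0.00052) for SLC7A5. These p-values follow the choice to leave out an array for its values, so they are not a test. With slide as a fixed block neither passed at 42 µM (limma adjusted p = 0.056 for STC2 and 0.0598 for SLC7A5), and with slide as a random block both passed (0.00616 and 0.00736). Neither passed without DMSO replicate 2 (0.051 for both) or without 42 µM replicate 2 (0.052 and 0.059).

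The classical AHR targets of drug metabolism did not pass. NQO1, a quinone reductase that AHR and NRF2 both control, had levels of 6.81 to 7.48 in DMSO, of 7.08 to 7.76 at 28 µM and of 6.78 to 7.57 at 42 µM. Its log2 difference at 42 µM was -0.04 (SE 0.21, limma adjusted p = 0.963). ALDH3A1, an aldehyde dehydrogenase, was not well above background on any DMSO or 42 µM array and was above it on 2 arrays at 28 µM. UGT1A6, a glucuronosyltransferase, had log2 differences of 0.27 (SE 0.18, limma adjusted p = 0.543) at 42 µM and 0.32 (adjusted p = 0.543) at 28 µM, or 0.40 (adjusted p = 0.347) without replicate 4, and its probe may also read other UGT1A transcripts, since they share their last exons. UGT1A1 has 0 probes under that name.

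For the genes that hold, assist or feed the receptor, counts are by the brightest probe of a gene. They stand beside 1.57% of all genes as higher and 1.42% as lower at 42 µM, so that 0 is a usual count for lists of this size, and at 28 µM 0 genes of the array passed. Of 16 chaperones, partners and cofactors tested, 0 passed at 42 µM, with medians of -0.04 at both doses and -0.01 at 28 µM without replicate 4. HSP90AB1, which encodes HSP90 beta, had a log2 difference of -0.14 (SE 0.31, limma adjusted p = 0.905) at 42 µM. KLF6, a zinc-finger factor that can pair with AHR, was named after its values were seen: its brightest probe had 0.60 (SE 0.17, limma adjusted p = 0.076) at 42 µM, and 1 of its other probes passed both limits. Of 11 genes of tryptophan breakdown, the pathway that makes kynurenine and other AHR ligands, 0 passed at 42 µM, and the medians were 0.05 (42 µM), -0.06 (28 µM) and -0.11 (28 µM without replicate 4). TDO2, its first enzyme in liver, was above background on 2 DMSO arrays, 1 array at 28 µM and 0 at 42 µM. Of 13 genes for P450 electron supply and heme, 0 passed at 42 µM, with medians of -0.07 and 0.02, the latter also without replicate 4. A dimmer probe of UROS, an enzyme of heme synthesis named after its values were seen, passed both limits at 42 µM. POR, the reductase that passes electrons to P450 enzymes, had 0.43 (SE 0.20, limma adjusted p = 0.316) at 42 µM.

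A pair of other xenobiotic programs was set beside the battery. The list for the receptors PXR and CAR held CAR, RXRA, P450 targets and the transporter ABCB1, while the probe of PXR did not pass the filter. Of its 11 tested genes, 0 passed at 42 µM, beside the same shares of all genes. The medians were 0.06 and 0.03, the latter also without replicate 4, and 7 genes were above 0 at 42 µM. ABCB1, named after its values were seen, had the highest log2 difference of the list at 42 µM, 0.75 (SE 0.21, limma adjusted p = 0.069). Of 15 targets of NRF2, the factor of the oxidative stress response, 1 passed as higher at 42 µM and 0 as lower, beside 1.57% and 1.42% of all genes. The medians were 0.26 (42 µM), 0.22 (28 µM) and 0.17 (28 µM without replicate 4). At each dose 12 of 15 genes were above 0, beside 11095 of 24251 genes at 42 µM and 11012 at 28 µM. The gene that passed was SRXN1, which repairs peroxiredoxins, with a log2 difference of 0.64 (SE 0.13, limma adjusted p = 0.024). With all arrays a dimmer probe of SLC7A11 also passed at 42 µM. Without 28 µM replicate 4, the brightest probes of SLC7A11 and ABCC2, both genes named after their values were seen, passed at 42 µM, with limma adjusted p-values of 0.020 and 0.046, and SLC7A11 passed at 28 µM with a log2 difference of 2.17 (limma adjusted p = 0.021). SRXN1 did not pass with slide as a fixed block (limma adjusted p = 0.0598), without DMSO replicate 2 (0.078) or without 42 µM replicate 2 (0.091).

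**Figure D5:**
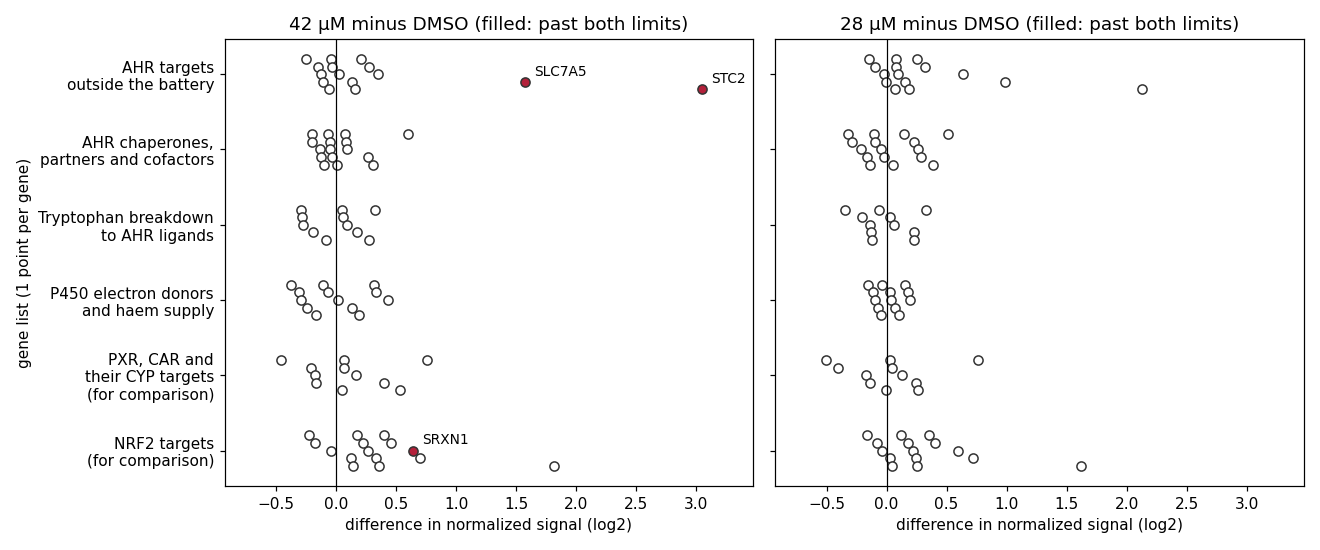
Log2 difference from DMSO (horizontal axis) of each tested gene of the 6 lists, 1 point per gene, at 42 µM (left) and 28 µM (right), filled where both limits were passed; the vertical offset within a list has no meaning. STC2 at 3.05, SLC7A5 at 1.57 and SRXN1 at 0.64 are the filled points at 42 µM, and there is none at 28 µM.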

How the data were processed

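Total RNA of 12 HuH-7 cultures was hybridized in 1 color to Agilent whole human genome arrays on 5 slides. Per the file headers and labels, the authors extracted the spot intensity values with Agilent Feature Extraction 10.7.3.1, whereas the methods name another version. The authors' own log2 values, Edwards-corrected and quantile normalized, were deposited too and served as an alternative. Depth does not apply to arrays, and their number limits the precision.

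Mean and background intensities were corrected (Edwards) and quantile normalized with limma 3.58.1 in R 4.3.3, without control spots and spots flagged as outliers, and spots of a probe were averaged. A probe was dropped where every group had 3 or more of its 4 arrays without detection, which left 33467 of 41000. One limma model (lmFit, eBayes) covered all 12 arrays and 3 groups, with two-sided tests and Benjamini-Hochberg adjustment over all kept probes. The limits were an adjusted p-value of 0.05 and a log2 difference of 0.6. A gene in a list is represented by its brightest probe. The fit was tested on simulated data. Names of 68.5% of probes were matched to RefSeq by accession, and the rest keep design names. Promoters came from RefSeq.

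The battery genes and the lists were chosen with earlier results of these data known. Named are all battery probes, list genes that passed, NQO1, ALDH3A1, UGT1A1, UGT1A6, HSP90AB1, TDO2 and POR. Also named are the 5 genes outside the battery most and the 3 least correlated with CYP1A1. Some levels are not reported here. Figures were drawn with matplotlib 3.10.9. The alternatives tried were normexp (offset 50), scaling to the 75th percentile of either the processed signal or the Edwards values, no or a strict filter, the deposited log2 values, slide as a fixed or random block, the replicate number as a block, a log2 limit of 1, and each array left out in turn with normalized values kept.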

Additional observations from a re-analysis of the deposited data

Results flagged for a closer look

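Among 28 probes in 3 groups each, which gives 84 groups of 4 arrays, 4 groups had an array whose gap to the nearest other array, divided by the range of the group, exceeded Dixon's 95% critical value. Chance flags about 1 in 20 groups. None of the 4 belonged to a battery gene. LSS read 11.38 on 28 µM replicate 4, where the nearest other array read 12.67, and 11.45 on DMSO replicate 1, where the nearest read 11.24. ACSS2 read 11.69 on 42 µM replicate 2, where the nearest read 10.79. ALDH3A1, a probe near background, read 6.16 on 28 µM replicate 1, where the nearest read 5.85.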

How the results depend on the processing

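Probes that passed at 42 µM numbered 472 as higher and 413 as lower. The counts were 278 and 342 with the processed signal and 319 and 493 with the Edwards values, both scaled to the 75th percentile. They were 209 and 157 at a log2 limit of 1. With slide as a fixed block 0 and 1 passed, and 0 of the AHR targets outside the battery. At an unadjusted limma p below 0.05 with the log2 limit of 0.6, 982 and 728 passed in that fit. Leaving out each array in turn gave 0 to 671 as higher, 0 to 550 as lower and 0 to 2 of these AHR targets at 42 µM, with 0 without DMSO replicate 2 or 42 µM replicate 2. At 28 µM it gave 0 to 438 as higher, 0 to 281 as lower and 0 to 2 AHR targets, the upper ends without 28 µM replicate 4. Arrays of different groups share only a replicate number: 7 of 12 correlations of same-numbered deviations were over 0.1 (range -0.46 to 0.62). With the replicate number as a block, 776 passed as higher at 42 µM, and 1 as higher and 1 as lower at 28 µM. The cause of these changes was not tested.

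The log2 difference of CYP1A1 stayed between 3.28 and 3.41 at 42 µM and between 2.50 and 2.65 at 28 µM over 9 other settings, and between 3.14 and 3.54 and between 2.20 and 3.41 with each array left out. CYP1A1 passed at 42 µM in 8 of the 9 settings and in 10 of 12 fits that left out an array, TIPARP in 7 and 6, and CYP1B1 in 1 and 2. Over the same fits, the number of all probes that passed as higher at 42 µM ran from 0 to 776. Nothing is read from the counts of these genes, since they were picked from these contrasts. The processed signal scaled to the 75th percentile gave larger differences for the dim probes, up to 0.998 for AHRR A_23_P344400 and 0.952 for ARNT A_24_P391568 at 42 µM.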
